A study of Canis lupus familiaris with 15 samples.

Results

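The change in gene expression that the compound labelled UO made in cells given hepatocyte growth factor (HGF) was measured by setting 3 arrays labelled HGF + UO against 4 arrays labelled HGF. These 7 arrays were taken by their titles from the 15 arrays of the series. All came from MDCK (Madin-Darby canine kidney), an established dog kidney epithelial line that grows on porous supports as a polarised sheet. Every culture stood on a Transwell filter for 7 days in serum-containing medium. The HGF + UO cultures had HGF at 100 ng/ml for 24 hours together with a compound spelled UO126 at 10 uM, and the HGF cultures had the same HGF alone. The remaining arrays, which enter as a shared estimate of the spread and as values set beside the main ones, were 4 HGF + PD cultures, whose HGF came with 50 uM of an agent spelled PD09859, and 4 Control cultures in plain medium. The series title names the compounds as MAPK inhibitors, and the spellings were read as U0126 and PD98059, inhibitors of the kinase MEK. Cells given the compound without HGF, or its solvent, were not analysed here, and the labels give the arrays as biological replicates without saying what the cultures had in common.

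HGF binds the receptor tyrosine kinase MET, which signals through RAS and the kinases RAF, MEK and ERK as well as through other routes. ERK phosphorylates transcription factors such as the ETS-domain ternary complex factors and stabilises AP-1 proteins, which switch on immediate early genes and then genes of proliferation, protease release and migration. The pathway also induces its own brakes, among them dual-specificity phosphatases and Sprouty proteins. In MDCK cells HGF is known as scatter factor, since it makes colonies come apart and makes cysts branch into tubules, and MEK inhibitors are the usual tool to test which of its effects pass through ERK.

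The values are log2 of the deposited intensities, and a change is the HGF + UO mean minus the HGF mean on that scale, with the standard error (SE) of a limma fit over all 15 arrays. Probe sets had to reach 4 on the log2 scale on 3 or more of the 15 arrays, and that value is called the filter level. A probe set was called when its Benjamini-Hochberg adjusted p fell below 0.05, and the words rose and fell are kept for called genes. Arrays of 1 group were alike, with correlations of 0.995 to 0.998 among HGF + UO arrays and 0.994 to 0.997 among HGF arrays. The median intensity was 41.5 ± 0.918 on HGF + UO arrays and 40.6 ± 0.206 on HGF arrays (SD, n = 3 and n = 4), and the difference gave an exact permutation p of 0.0571. The 3' to 5' signal ratio of the beta-actin control, a sign of RNA quality, was 2.15 ± 0.0409 on HGF + UO arrays and 1.48 ± 0.0808 on HGF arrays (log2, SD). That of GAPDH was 1.25 ± 0.019 and 1.06 ± 0.0358 in the same order. Neither ratio overlapped between the groups. Each gave an exact two-sided permutation p of 0.0286 (0.0714 adjusted over the array measures), and no smaller p can come from 3 and 4 arrays. On Control arrays the beta-actin ratio ran from 2.17 to 2.29 and that of GAPDH from 1.08 to 1.17. On HGF + PD arrays they ran from 2.08 to 2.23 and from 1.04 to 1.11. For beta-actin the HGF arrays thus lay below all other arrays, and for GAPDH the HGF + UO arrays lay above all others. The part of RNA quality in the results below was not tested.

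The cells carried epithelial markers in both groups. Of 10 epithelial markers 9 were measured, and their summed linear intensity ran from 92233 to 100654 on HGF + UO arrays and from 90687 to 109648 on HGF arrays, so the ranges overlapped. A sum of linear intensities follows its brightest members, and single markers differed: of the 9, 4 fell and 2 rose (over all genes measured 26.3% fell and 26.2% rose), with CLDN4 (-2.11 ± 0.08) and CDH1 (-1.26 ± 0.09) among those that fell and EPCAM (0.72 ± 0.11) and CDH16 (1.96 ± 0.21) the members that rose. The 4 fibroblast markers measured, of 8 listed, summed to 247 to 265 with UO and 258 to 277 with HGF alone. The 4 endothelial markers, of 8, summed to 433 to 477 and 468 to 532 in the same order. Of 8 leukocyte markers 3 were measured, with sums of 83.8 to 93.0 on HGF + UO arrays and 109 to 352 on HGF arrays. That span came from CD68, a lysosomal membrane protein best known from macrophages, at a log2 intensity of 3.21, 3.73 and 3.21 with UO and 6.99, 4.91, 5.11 and 8.12 with HGF alone.

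Adding UO to HGF moved 5398 of the 10287 genes measured (52.5%), each gene being read from its brightest probe set. Of these 2692 rose (26.2%) and 2706 fell (26.3%), and the median difference over all genes was -0.00 on the log2 scale. The 3 HGF + UO arrays did not overlap the 4 HGF arrays in 5605 genes (54.5%). By probe set the calls numbered 13060 of 24904 (52.4%). Most differences were small. Among genes that fell 1075 changed by less than 0.5 on the log2 scale and 703 by at least 1 (6.83% of all genes), and among those that rose 1115 changed by less than 0.5 and 680 by at least 1 (6.61%). A difference of more than 4 was seen in 30 genes that fell and in 25 that rose. With the filter level of 4 taken as a line, 25 genes lay at or above it on 3 of 3 HGF + UO arrays and on 0 of 4 HGF arrays, and 46 lay below it on 3 of 3 HGF + UO arrays and at or above it on 4 of 4 HGF arrays. From bulk RNA, fewer cells that express a gene and less of its RNA per cell cannot be told apart.

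**Figure D1:**
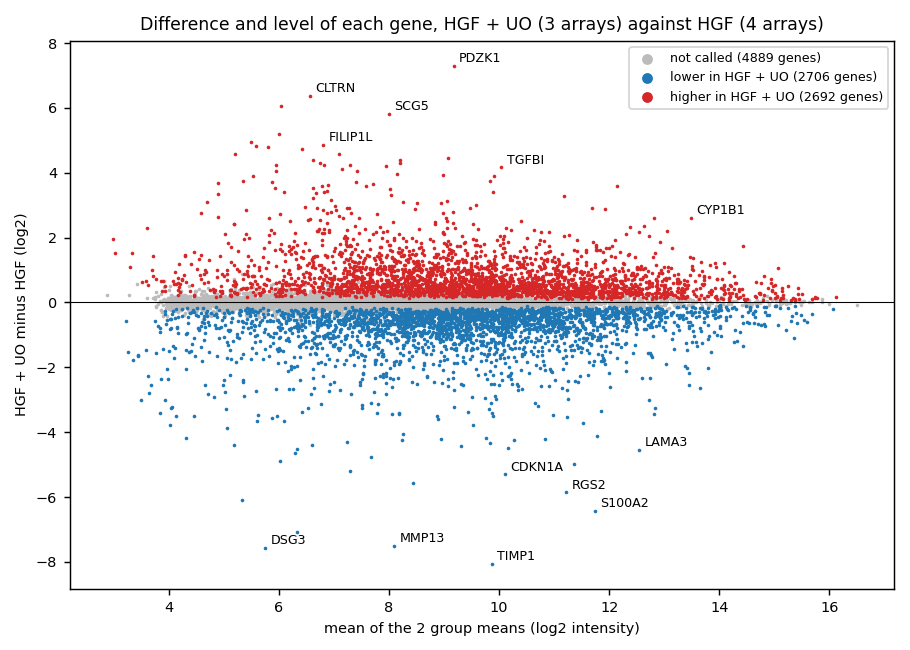
Difference between the HGF + UO mean and the HGF mean (log2, vertical axis) against the mean of both group means (log2 intensity, horizontal axis) for the 10287 genes measured, with 2692 genes called higher in HGF + UO in red, 2706 called lower in blue and 4889 not called in grey. The points spread about equally above and below the line at 0, the widest falls reach -8.05 (TIMP1) and the widest rises 7.30 (PDZK1), and large differences occur at low and at high levels.

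The gene that fell furthest was TIMP1, a secreted inhibitor of matrix metalloproteinases. It read 6.02, 5.79 and 5.71 on the HGF + UO arrays, against 13.82, 13.93, 13.80 and 14.03 on the HGF arrays. The groups were far apart, with little spread inside either, and the difference was -8.05 ± 0.10 or 266-fold (adjusted p = 3.04e-16). The collagenase MMP13, which cleaves fibrillar collagen, read 4.18, 4.77 and 4.08 with UO, against 11.81, 11.17, 12.23 and 12.19 with HGF alone. The groups were far apart (-7.51 ± 0.22, adjusted p = 2.85e-12), and the HGF + UO arrays sat at the filter level, so the size depends on the GCRMA background estimate. The protease and its inhibitor were thus both lower in the same cultures.

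S100A2, a calcium-binding protein of stratified and stressed epithelia, read 8.52, 8.63 and 8.44 with UO, against 14.96, 14.96, 14.88 and 15.02 with HGF alone. Both groups were well measured and did not overlap (-6.42 ± 0.08, 85.9-fold, adjusted p = 2.82e-16). RGS2, which shortens signalling by Gq-coupled receptors, read 8.51, 8.40 and 7.97 on HGF + UO arrays, against 14.10, 14.13, 14.13 and 14.20 on HGF arrays (-5.85 ± 0.11, adjusted p = 3.74e-14). CDKN1A encodes p21, an inhibitor of cyclin-dependent kinases. It stood at 7.68, 7.44 and 7.26 with UO, against 12.70, 12.61, 12.73 and 12.99 with HGF alone, and fell by 5.30 on the log2 scale (SE 0.17, adjusted p = 9.25e-12). Its other probe sets fell as well, by 4.87 and 1.62.

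The transcriptional repressor SNAI2 (Slug), which switches off E-cadherin and other junction genes, read 9.29, 8.64 and 8.68 with UO, against 13.90, 13.68, 13.92 and 13.93 with HGF alone. All HGF + UO arrays lay far below all HGF arrays (-4.99 ± 0.19, 31.8-fold, adjusted p = 3.62e-11). PTGS2, the inducible cyclooxygenase that starts prostaglandin synthesis, read 8.14, 8.31 and 7.31 on HGF + UO arrays, against 12.37, 12.17, 12.39 and 12.68 on HGF arrays (-4.48 ± 0.23, adjusted p = 6.56e-10). The HGF + UO arrays of PTGS2 varied more among themselves than the HGF arrays did (SD 0.54 and 0.21), yet the gap was many times that spread. LAMA3, the alpha chain of the basement membrane protein laminin-332, read 10.35, 10.04 and 10.40 with UO, against 14.71, 14.76, 14.86 and 14.93 with HGF alone. It stayed a bright gene in both groups while losing 23.4-fold (-4.55 ± 0.13, adjusted p = 2.68e-12).

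EREG, the EGF receptor ligand epiregulin, read 4.06, 4.13 and 4.01 with UO, against 8.74, 8.23, 8.63 and 8.75 with HGF alone. With UO it lay at the filter level (-4.52 ± 0.10, adjusted p = 2.06e-13), with the same limit on its size as MMP13. CDC25B, a phosphatase that activates mitotic cyclin-dependent kinases, read 4.49, 4.48 and 4.21 with UO, against 8.17, 9.02, 9.06 and 8.95 with HGF alone (-4.41 ± 0.21, adjusted p = 3.71e-10). The size of its fall has the same limit, since its HGF + UO arrays lay near the filter level. MALL, a lipid raft protein of the MAL family, read 7.49, 7.65 and 7.88 with UO, against 12.01, 11.91, 12.12 and 12.04 with HGF alone (-4.35 ± 0.10, adjusted p = 2.28e-13). The 15 widest falls with both group means at or above the filter level were chosen among called genes whose groups did not overlap. The remaining genes among them follow. They were the ectonucleotidase ENTPD3 (-5.55 ± 0.15), the secreted glycoprotein OLFM1 (-5.196 ± 0.17), the interferon-inducible helicase DDX60 (-4.75 ± 0.08) and hephaestin (HEPH, -4.41 ± 0.13), a copper-containing ferroxidase that serves iron export.

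**Figure D2:**
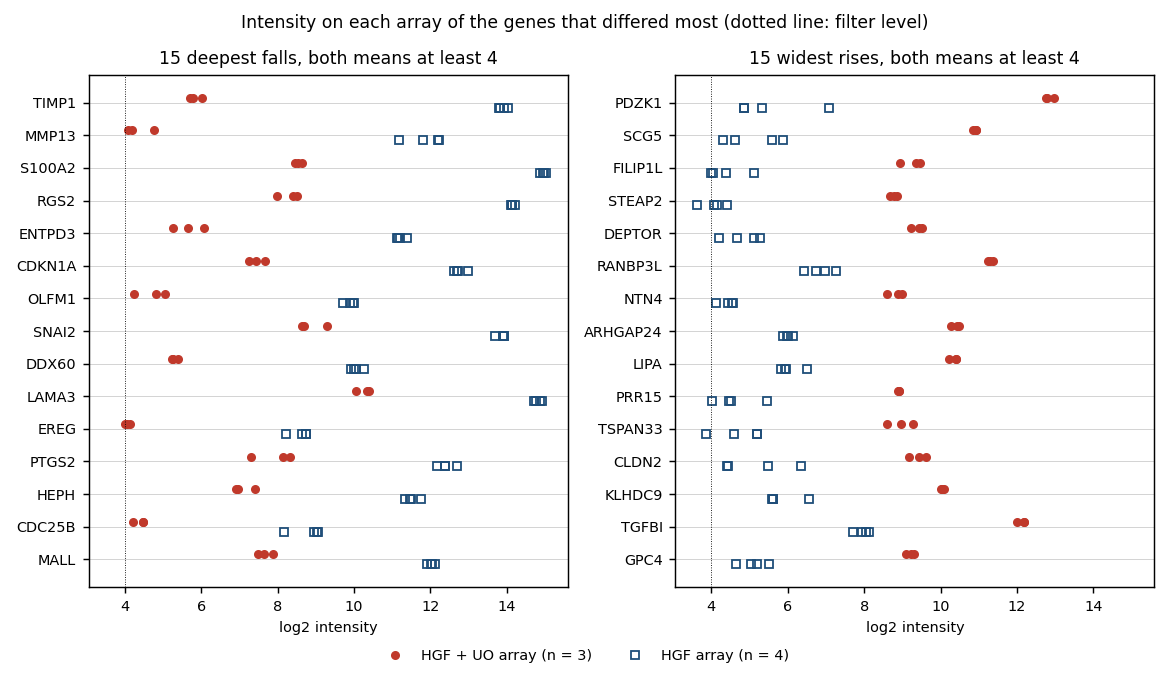
Log2 intensity, among genes with both group means at or above the filter level of 4, of the 15 that fell most (left) and the 15 that rose most (right) on each of the 3 HGF + UO arrays (filled circles) and the 4 HGF arrays (open squares), with a dotted line at that level. The genes were chosen among calls whose groups do not overlap. TIMP1 sits between 5.71 and 6.02 with UO and between 13.80 and 14.03 with HGF alone, and PDZK1 between 12.75 and 12.96 with UO and between 4.84 and 7.08 with HGF alone.

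Some genes fell to levels under the filter, where GCRMA compresses values and the size of a change depends on the background estimate. DSG3, a desmosomal cadherin of stratified epithelium, read 1.97, 1.99 and 1.95 with UO, against 9.48, 9.80, 9.43 and 9.45 with HGF alone (-7.57 ± 0.07, adjusted p = 1.36e-17). TFPI2, a secreted Kunitz-type protease inhibitor, read 2.75, 2.96 and 2.68 with UO, against 10.32, 9.52, 9.59 and 10.05 with HGF alone (-7.08 ± 0.15, adjusted p = 1.45e-13). Both were at the floor on every HGF + UO array and clearly measured on every HGF array. ISG20, an interferon-inducible exonuclease, the epidermal secreted protein SBSN and the ubiquitin ligase NEDD4 followed at -6.10 ± 0.11, -4.88 ± 0.14 and -4.63 ± 0.09. DSG3, TFPI2 and ISG20 passed the filter only through the HGF arrays. So did CDKN2B, LOX, INHBA, CD68 and FOSL1, which other paragraphs name. All of them stay in the list counts. Their SE and adjusted p rest on a spread pooled with groups compressed at the floor (for DSG3 SD 0.02 with UO and 0.18 with HGF). Their p-values are therefore not taken as further support.

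PDZK1, a scaffold that holds transporters at the apical membrane of kidney tubule cells, rose furthest. It read 12.75, 12.78 and 12.96 on HGF + UO arrays, against 4.85, 4.84, 7.08 and 5.33 on HGF arrays. HGF replicate 3 stood above the other HGF arrays, and all 3 HGF + UO arrays were far above every HGF array (7.30 ± 0.38, 158-fold, adjusted p = 9.47e-10). SCG5, a chaperone of prohormone convertase 2 in secretory granules, read 10.94, 10.94 and 10.85 with UO, against 4.62, 4.30, 5.59 and 5.87 with HGF alone (5.81 ± 0.28, adjusted p = 3.54e-10). DEPTOR, an inhibitor of the kinase mTOR, read 9.51, 9.24 and 9.43 with UO, against 4.21, 5.12, 5.28 and 4.67 with HGF alone. Its groups lay 4.57 ± 0.21 apart (adjusted p = 2.88e-10), and its other probe set rose by 2.69.

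CLDN2, the claudin that forms cation pores in leaky tubule epithelium, read 9.43, 9.17 and 9.62 with UO, against 4.43, 4.42, 6.36 and 5.48 with HGF alone. Its HGF arrays spread widely (SD 0.93, against 0.23 with UO) but did not reach the HGF + UO arrays (4.24 ± 0.38, adjusted p = 2.62e-07). TGFBI, a secreted matrix protein that integrins bind, read 12.18, 12.004 and 12.18 with UO, against 7.70, 8.06, 7.95 and 8.11 with HGF alone (4.17 ± 0.16, adjusted p = 3.47e-11). It was measured well above the filter in both groups. LIPA, the acid lipase of lysosomes, read 10.39, 10.22 and 10.41 with UO, against 5.96, 5.92, 5.81 and 6.503 with HGF alone (4.29 ± 0.15, adjusted p = 1.85e-11). NTN4, a laminin-related protein of basement membranes, read 8.90, 8.59 and 8.99 with UO, against 4.55, 4.13, 4.56 and 4.44 with HGF alone (4.41 ± 0.14, adjusted p = 7.35e-12).

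The others among the 15 widest rises with both group means at or above the filter level covered several functions. The metalloreductase STEAP2 rose by 4.72 ± 0.16, ARHGAP24, which turns off the GTPase Rac, by 4.40 ± 0.09, and the heparan sulfate proteoglycan GPC4 by 4.11 ± 0.15. RANBP3L, a Ran-binding protein, rose by 4.45 ± 0.14, the tetraspanin TSPAN33 by 4.24 ± 0.27 and FILIP1L, named for its likeness to a filamin-interacting protein, by 4.87 ± 0.32. PRR15 and KLHDC9 rose by 4.29 ± 0.23 and 4.20 ± 0.24. Other probe sets rose much less for ARHGAP24 (1.34), STEAP2 (2.15 and 1.85), KLHDC9 (1.82) and FILIP1L (0.92, 1.93 and 1.06). The place of these genes among the widest rises thus rests on the brightest probe set alone. Other probe sets of GPC4 rose by 3.91 and of RANBP3L by 2.86 and 4.99. The HGF arrays of NTN4, STEAP2 and FILIP1L lay near the filter level, so the sizes of those rises depend on the background estimate. The same limit holds for PDZK1, SCG5, DEPTOR and CLDN2, for which some or all HGF arrays lay near that level. From under the filter came CLTRN (collectrin), a partner of amino acid transporters in the proximal tubule, at 9.70, 9.79 and 9.76 with UO, against 3.22, 3.26, 3.75 and 3.28 with HGF alone (6.37 ± 0.12, adjusted p = 3.54e-14). On this probe set all 3 HGF + UO arrays of CLTRN were well above the floor at which the HGF arrays stood. The other CLTRN probe set rose much less (1.60), from a mean of 6.34 with HGF alone to 7.94 with UO. TEX26 (6.06 ± 0.10), GADD45G (5.203 ± 0.38), a growth arrest protein induced by stress, the transcription factor DACH1 (4.94 ± 0.17) and the glutathione transferase MGST1 (4.78 ± 0.25) also rose from under the filter, and the sizes depend on the floor.

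The first lists follow the signalling chain. Of 18 measured genes of the MAPK cascade, 8 fell and 1 rose (all genes 26.3% and 26.2%), with differences from -1.31 to 0.56 and a median of -0.20. Of this list 50.0% were called, near the 52.5% of all genes. These shares over all genes are the measure for every list count below. The kinase BRAF fell by 1.09, the GTPase HRAS by 0.95 and RASA1, which turns RAS off, by 1.31. The ribosomal S6 kinases RPS6KA3 and RPS6KA1, which ERK phosphorylates, fell by 0.95 and 0.86. Of the MEK genes, MAP2K1 differed by -0.55 ± 0.04 (adjusted p = 7.93e-08), with its other probe sets at 0.18 and -0.38. MAP2K2 differed by -0.02 ± 0.13 (adjusted p = 0.911). NF1, which turns RAS off, was the member called higher (0.56 ± 0.17, adjusted p = 0.0100), but its other probe sets differed by -0.97 and -0.25, so its direction is not settled.

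Genes that ERK induces, many of which feed back on it, were lower or not called. The 14 measured genes of ERK feedback and output had a median difference of -1.18, and 9 fell and 0 rose. DUSP5, a nuclear phosphatase of ERK, read 8.01, 7.18 and 7.85 with UO, against 11.64, 11.78, 12.07 and 11.96 with HGF alone (-4.18 ± 0.19, 18.2-fold, adjusted p = 2.21e-10). DUSP6, the cytoplasmic ERK phosphatase, read 12.45, 12.49 and 12.49 with UO, against 13.14, 13.17, 13.24 and 13.31 with HGF alone. The groups of DUSP6 did not overlap either (-0.74 ± 0.06, adjusted p = 1.39e-07). ERRFI1, an inhibitor of the EGF receptor, read 11.22, 11.11 and 10.93 with UO, against 14.52, 14.46, 14.56 and 14.58 with HGF alone (-3.45 ± 0.14, adjusted p = 6.70e-11). Cyclin D1 (CCND1), which carries growth factor signals to the cell cycle, read 9.08, 8.85 and 9.06 with UO, against 11.62, 11.58, 11.75 and 11.83 with HGF alone (-2.70 ± 0.08, adjusted p = 3.07e-12). The phosphatases DUSP1 and DUSP10, which act mainly on p38 and JNK, fell by 2.65 and 2.44, and IER3 and PHLDA1 by 1.202 and 1.15. DUSP7, SPRED1 and EPHA4 did not pass (-0.27 ± 0.14, -0.26 ± 0.14 and -0.21 ± 0.15).

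The immediate early transcription factors were the most uniformly lowered list by share of members. Among 16 immediate early factors, 15 fell and 0 rose (median -1.56). FOS, an AP-1 subunit, read 11.35, 11.26 and 11.07 on HGF + UO arrays, against 14.19, 14.20, 14.23 and 14.27 on HGF arrays. It was bright in both groups and lost 7.96-fold (-2.99 ± 0.07, adjusted p = 5.46e-13). EGR1, a zinc finger factor driven by ERK and the ternary complex factors, read 8.09, 7.78 and 8.41 with UO, against 9.93, 10.13, 10.55 and 10.32 with HGF alone (-2.14 ± 0.26, adjusted p = 7.48e-06). In Control EGR1 averaged 11.54, above both of these groups. FOSL1, another AP-1 subunit, read 2.25, 2.27 and 2.21 with UO, against 3.37, 4.05, 6.15 and 6.61 with HGF alone. Its HGF arrays spread over more than 3 on the log2 scale, from under the filter to well above it, and its HGF + UO arrays were all at the floor (-2.80 ± 0.57, adjusted p = 7.09e-04). FOSL1 passed the filter only through HGF arrays, and its SD was 1.58 with HGF and at most 0.03 in each other group. The pooled SE and the p that rests on it therefore understate the spread with HGF. KLF6, KLF10 and MYC fell by 3.18, 2.48 and 1.39, and JUNB and JUN by 1.78 and 0.85. SRF, the partner of the ternary complex factors, fell by 0.68 on its brightest probe set, with others at -0.46 and -0.12.

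**Figure D3:**
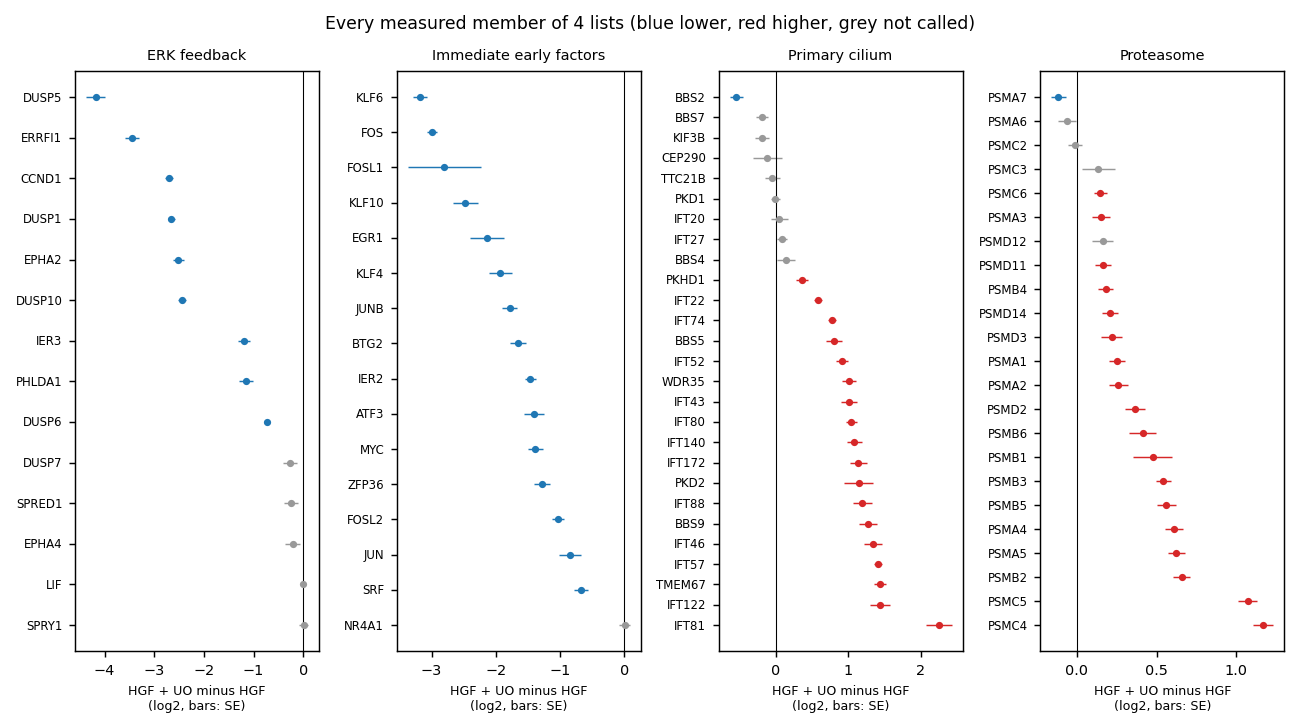
Difference between HGF + UO and HGF (log2, horizontal axis, bars 1 SE) for every measured member of the ERK feedback, immediate early, primary cilium and proteasome lists, coloured blue where called lower, red where called higher and grey where not called. Called members of the first 2 lists all lie left of 0, down to -4.18 for DUSP5, and most called members of the last 2 lie right of it, up to 2.25 for IFT81.

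Transcription factors of the ETS family and of mesenchymal transition were called at 50.0% of members, near the 52.5% of all genes. Of 16 measured genes of that list, 6 fell and 2 rose, with differences from -4.99 to 0.71 and a median of -0.08. Besides SNAI2, the ternary complex factor ELK3 fell by 2.35 on its brightest probe set, with the other at -0.70. ETV4, an ETS factor often used as a readout of ERK, fell by 1.26. The ternary complex factor ELK4 fell by 1.46 to under the filter level. The epithelial ETS factor EHF rose by 0.41 and ETV6 by 0.71.

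Of the genes of HGF and its receptor MET 42.9% were called, against 52.5% of all genes, with 21.4% lower and 21.4% higher. The 14 measured genes of HGF and MET signalling had a median difference of 0.05, and 3 fell and 3 rose. MET, the receptor of HGF, read 10.81, 10.75 and 10.84 with UO, against 12.09, 12.26, 12.21 and 12.30 with HGF alone. The groups did not overlap and MET was 2.66-fold lower with UO (-1.41 ± 0.07, adjusted p = 8.26e-10). Hepsin (HPN), a serine protease that can activate pro-HGF, rose by 0.75, and the plexin PLXNB1, which associates with MET, by 0.66. Among 11 genes of the EGF family, 5 fell and 5 rose (45.5% each way, median -0.01). The EGF precursor gene (EGF) read 12.89, 12.75 and 12.79 with UO, against 9.36, 9.24, 9.89 and 9.64 with HGF alone (3.28 ± 0.11, 9.69-fold, adjusted p = 1.42e-11). The ligands EREG and HBEGF fell to near the filter level (-4.52 ± 0.10 and -2.45 ± 0.18) while EGF and NRG1 rose (3.28 ± 0.11 and 1.04 ± 0.20). Their receptors split likewise, with EGFR lower (-2.05 ± 0.08) and ERBB2 higher (0.60 ± 0.12).

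Genes of matrix breakdown and adhesion were widely lowered. The 19 measured matrix proteases and inhibitors had a median difference of -0.83, and 12 fell and 5 rose. Without HGF + UO replicate 1 or 3, or HGF replicate 2 or 4, 3 rose. The serine protease inhibitor SERPINE2 read 8.73, 8.86 and 8.61 with UO, against 12.96, 12.99, 12.82 and 13.005 with HGF alone (-4.21 ± 0.11, adjusted p = 1.22e-12). Inhibitors of the membrane protease matriptase and of the HGF activator went up instead, SPINT1 by 1.30 and SPINT2 by 0.35. Among 19 integrin and adhesion genes, 14 fell and 3 rose (median -1.30). ITGA6, the laminin receptor subunit, read 9.73, 9.64 and 9.77 with UO, against 13.79, 13.71, 13.90 and 13.94 with HGF alone (-4.12 ± 0.08, adjusted p = 4.34e-14), and its other probe sets differed by -3.99, -7.27 and -0.12. ITGA3, ITGA2 and ITGB3 fell by 2.23, 2.18 and 2.23. The collagen receptor subunit ITGA1 and ITGB8, which activates latent TGF-beta, rose by 1.27 and 1.19.

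Of 24 measured matrix and basement membrane genes, 8 fell and 6 rose, with differences from -4.55 to 4.41 and a median of -0.05. LAMB3, the beta chain of laminin-332, fell with LAMA3. It read 9.80, 9.56 and 9.91 with UO, against 12.62, 12.76, 12.75 and 12.84 with HGF alone (-2.99 ± 0.09, adjusted p = 2.85e-12). COL17A1, the hemidesmosomal collagen, read 8.36, 8.19 and 8.34 with UO, against 11.16, 11.31, 11.49 and 11.66 with HGF alone (-3.11 ± 0.09, adjusted p = 3.46e-12). The loss was thus 23.4-fold for LAMA3, 7.92-fold for LAMB3 and 8.63-fold for COL17A1. LOX, which cross-links collagen, fell by 3.78 to under the filter, which it passed only through HGF arrays. In the other direction COL4A1, a chain of the collagen of all basement membranes, rose by 0.62 and the laminin chain LAMB1 by 0.65.

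Members called higher by limma numbered 0 in the lists of ERK feedback, immediate early factors, actin and SRF, mitosis and cholesterol synthesis, and also 0 in each at an unadjusted p under 0.05. The 25 measured actin and SRF genes had a median difference of -0.77, and 20 fell and 0 rose. The actin crosslinker ACTN1 read 8.34, 8.05 and 8.15 with UO, against 11.31, 11.57, 11.81 and 11.61 with HGF alone (-3.39 ± 0.17, adjusted p = 7.91e-10). CAPG, which caps filaments, FHL2, a cofactor of SRF, and the crosslinker FLNA fell by 2.64, 1.95 and 1.80. Among 13 YAP targets and partners, 6 fell and 3 rose (46.2% and 23.1%, median -0.20). Tissue factor (F3) fell by 2.53 and TEAD4, a DNA-binding partner of YAP, by 1.97. CRIM1 rose by 1.002.

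Junction and polarity genes divided. The 29 measured junction genes had a median difference of -0.25, and 14 fell and 10 rose (48.3% and 34.5%, against 26.3% and 26.2% of all genes). E-cadherin (CDH1), the main adherens junction cadherin, read 9.05, 9.10 and 9.29 with UO, against 10.35, 10.58, 10.22 and 10.45 with HGF alone (-1.26 ± 0.09, adjusted p = 3.49e-08). CDH1 and its repressor SNAI2 were thus both lower with UO. The barrier claudin CLDN4 and the desmosomal genes DSG2 and PKP3 fell by 2.11, 1.70 and 1.40. Besides CLDN2, the junctional adhesion molecule F11R rose by 1.11, EPCAM by 0.72 and CDH16, the kidney cadherin, by 1.96, although the other CDH16 probe sets differed by 1.25 and -0.42. Among 19 polarity and apical membrane genes, 9 fell and 6 rose (47.4% and 31.6%, median -0.18). The polarity proteins PARD3 and PARD6B fell by 1.45 and 1.14. Besides PDZK1, the apical scaffold SLC9A3R1 (NHERF1) rose by 1.02 and ANXA13, an annexin of apical transport, by 1.37.

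Of the transport genes of the nephron 37.5% were called, against 52.5% of all genes, and 31.2% were higher, near the 26.2% of all genes. Of 16 measured tubule transport genes, 1 fell and 5 rose, with differences from -0.30 to 6.37 and a median of 0.01. The membrane peptidase MME (neprilysin) read 7.19, 7.31 and 7.19 with UO, against 3.78, 3.78, 2.55 and 3.78 with HGF alone (3.76 ± 0.27, adjusted p = 2.51e-08), rising from under the filter. GGT1, the glutathione-cleaving enzyme of the brush border, rose by 1.76 and ATP1B1, the sodium pump beta subunit, by 0.72. The 14 measured transcription factors of the nephron had a median difference of 0.07, and 1 fell and 6 rose. Of these factors 50.0% were called, near the share of all genes, with 7.14% lower and 42.9% higher. OSR1, which marks early kidney progenitors, rose by 1.57, HNF4G by 1.46, TFAP2B by 0.97 and PAX8, needed for nephron formation, by 0.94. PPARG was the member that fell (-1.26 ± 0.06).

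Primary cilium genes gave the highest median of the 44 lists. Among 27 cilium genes, 1 fell and 18 rose (median 0.92). IFT81, a subunit of the transport particle IFT-B that carries cargo to the cilium tip, read 8.12, 7.73 and 7.75 with UO, against 5.41, 5.58, 5.31 and 6.14 with HGF alone (2.25 ± 0.17, 4.77-fold, adjusted p = 5.81e-08). IFT57, of the same particle, rose by 1.41 and TMEM67, a protein of the ciliary transition zone, by 1.44. IFT122, of the return particle IFT-A, rose by 1.44, with its other probe set at 0.10. BBS2, a coat subunit of ciliary membrane traffic, was the member that fell (-0.55 ± 0.09).

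Cell cycle genes were lower in part. The 18 measured G1 cyclins, inhibitors and partners had a median difference of -0.10, and 7 fell and 5 rose (38.9% and 27.8%, against 26.3% and 26.2% of all genes). Both the cyclins CCND1 and CCND2 and the inhibitors CDKN1A and CDKN2B fell, CCND2 by 2.08 and CDKN2B by 4.18 to under the filter. CDKN2B passed the filter only through HGF arrays. Another inhibitor, CDKN2C, rose by 0.90. Among 25 mitosis genes, 14 fell and 0 rose (median -0.48). ANLN, a scaffold of the cleavage furrow, read 4.78, 5.02 and 4.78 with UO, against 7.26, 7.88, 7.42 and 7.51 with HGF alone (-2.66 ± 0.26, adjusted p = 6.40e-07), and its other probe set differed by -0.48. The checkpoint kinase TTK and the spindle motor KIF11 fell by 1.07 and 0.99. Of 28 measured DNA replication genes, 11 fell and 5 rose, with differences from -1.47 to 0.50 and a median of -0.12. The share called was 57.1%, near the 52.5% of all genes, with 39.3% lower and 17.9% higher. CDC45 of the replicative helicase, the origin protein ORC1 and the polymerase subunit POLE2 fell by 1.47, 1.26 and 1.21, while MCM5 and PCNA rose by 0.50 and 0.31. The 11 measured p53 targets had a median difference of -0.28, and 6 fell and 1 rose. Besides CDKN1A, the kinase PLK2 fell by 3.11 and GADD45B by 1.85. Among 16 members of the BCL2 family and caspase list, 8 fell and 3 rose (median -0.29). BNIP3L, a mitophagy receptor, fell by 1.56, the survival protein MCL1 by 0.70, and BCL2 rose by 1.04.

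Genes of sugar and sterol metabolism were mostly lower, and those of respiration mostly higher. The 29 measured glycolysis and hypoxia genes had a median difference of -0.69, and 24 fell and 1 rose. Hexokinase HK1 read 8.95, 8.60 and 8.77 with UO, against 10.96, 10.89, 11.08 and 11.12 with HGF alone (-2.24 ± 0.09, 4.72-fold, adjusted p = 6.09e-11). PFKP, a phosphofructokinase, fell by 2.41, and the hypoxia-inducible genes EGLN3 and NDRG1 by 3.10 and 2.71. Among 20 cholesterol synthesis genes, 16 fell and 0 rose (median -0.97). INSIG1, which holds back sterol-regulated transcription, fell by 2.15, lanosterol synthase LSS by 1.88 and HMGCS1, at the entry to the pathway, by 1.69. Of 22 measured fatty acid genes, 10 fell and 4 rose, with differences from -2.06 to 0.98 and a median of -0.16. The elongase ELOVL1 fell by 2.06 and the acyl-CoA synthetase ACSL1 by 1.94, while ELOVL6 rose by 0.98. The 22 measured genes of the respiratory chain list had a median difference of 0.26, and 2 fell and 16 rose. NDUFB5, a subunit of complex I, read 12.78, 12.81 and 12.79 with UO, against 11.19, 10.91, 11.19 and 11.12 with HGF alone (1.69 ± 0.07, adjusted p = 8.93e-11). The other NDUFB5 probe set rose less, by 0.65. UQCRFS1 and CYC1 of complex III rose by 0.85 and 0.78. Citrate synthase (CS) fell by 0.47.

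Stress and protein synthesis genes were lower more often than higher. Among 28 genes of the ATF4 and unfolded protein response, 17 fell and 3 rose (median -0.41). DDIT4, an inhibitor of mTOR induced by stress, fell by 2.94, the stress factor DDIT3 (CHOP) by 2.45, asparagine synthetase ASNS by 1.61 and the amino acid carrier SLC7A5 by 1.51. The 18 measured tRNA synthetases had a median difference of -0.24, and 11 fell and 5 rose. WARS1 and CARS1, which charge tryptophan and cysteine tRNA, fell by 1.64 and 1.38, and QARS1 rose by 0.45. Among 22 MYC and ribosome biogenesis genes, 12 fell and 4 rose (median -0.24). The nucleolar protein UTP4 fell by 0.87, and ornithine decarboxylase ODC1 rose by 0.71. Of 21 measured mTOR regulators, 9 fell and 5 rose (42.9% and 23.8%), with differences from -2.42 to 4.57 and a median of -0.04. The translation repressor EIF4EBP1 fell by 2.42 and PIK3CA by 1.83, while MTOR rose by 0.82 beside its inhibitor DEPTOR.

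Detoxification, protein turnover and lysosome genes were higher more often than lower. The 23 measured NRF2 targets and partners had a median difference of 0.40, and 2 fell and 15 rose. The glutathione transferase GSTA4 read 12.85, 12.81 and 12.89 with UO, against 11.12, 11.18, 11.18 and 11.15 with HGF alone (1.69 ± 0.05, adjusted p = 2.38e-12). The iron store subunit FTH1 and GCLM, of glutathione synthesis, rose by 1.36 and 0.97, and thioredoxin TXN fell by 0.64. Among 23 proteasome genes, 1 fell and 18 rose (median 0.25). The rises were small, the widest being the ATPase subunits PSMC4 and PSMC5 at 1.17 ± 0.06 and 1.07 ± 0.06, with the core subunit PSMB2 at 0.66 ± 0.05. The 29 measured lysosome and autophagy genes had a median difference of 0.31, and 9 fell and 15 rose. Cathepsin A (CTSA) rose by 1.90 and cathepsin Z (CTSZ) by 1.22, while cathepsin D (CTSD) and the cholesterol exporter NPC1 fell by 1.56 and 1.74. Among 7 genes of the aryl hydrocarbon receptor, 1 fell and 3 rose (median -0.00), and the 57.1% called was near the 52.5% of all genes. CYP1B1, a cytochrome P450 induced by that receptor, read 14.87, 14.74 and 14.73 with UO, against 12.08, 12.20, 12.27 and 12.15 with HGF alone. It was bright in both groups and rose 6.08-fold (2.60 ± 0.11, adjusted p = 1.12e-10). TIPARP, another target, read 12.79, 12.61 and 12.86 with UO, against 11.31, 11.22, 11.37 and 11.37 with HGF alone (1.43 ± 0.06, adjusted p = 1.06e-10). The receptor itself (AHR) did not pass (-0.13 ± 0.07, adjusted p = 0.130), nor did ALDH3A1 (-0.21 ± 0.11), and its partner ARNT fell by 0.53.

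Among the lists of signals between cells, the share called was near the 52.5% of all genes for TGF-beta and BMP (58.3%), Wnt and Notch (56.2%), G protein signalling (55.6%) and Eph and semaphorin genes (55.0%). It was 68.8% for inflammation, 81.2% for the interferon response and 78.9% for S100 proteins and annexins. Of 24 measured TGF-beta and BMP genes, 8 fell and 6 rose, with differences from -3.51 to 4.17 and a median of -0.15. Without HGF replicate 3, 3 rose. The activin subunit INHBA fell by 3.51 to under the filter, BMP2 by 2.52 and TGFB2 by 1.59. INHBA passed the filter only through HGF arrays. The 16 measured inflammation and prostaglandin genes had a median difference of -0.35, and 9 fell and 2 rose. With PTGS2, the phospholipase PLA2G4A, which frees arachidonic acid, fell by 1.78, and the prostaglandin receptor PTGER2 rose by 1.56. Among 16 interferon response genes, 6 fell and 7 rose (median 0.15). Besides ISG20, the antiviral enzyme OAS2 fell by 2.36, and the immunoproteasome subunit PSMB9 rose by 1.35. The 19 measured S100 and annexin genes had a median difference of -0.53, and 13 fell and 2 rose. S100A14 and S100A4 fell by 3.35 and 2.70, and S100A1 rose by 1.44. Among 18 G protein signalling genes, 8 fell and 2 rose (median -0.09). After RGS2 came RGS17, which fell by 3.37. Of 20 measured Eph, ephrin, semaphorin and plexin genes, 10 fell and 1 rose, with differences from -2.51 to 0.66 and a median of -0.34. The receptor EPHA2, a known ERK output, fell by 2.51, SEMA3C by 2.10 and the semaphorin receptor PLXNA2 by 1.95. The 16 measured Wnt and Notch genes had a median difference of -0.02, and 7 fell and 2 rose. The Notch ligand JAG1 fell by 1.77 and WNT7A by 1.60, while the Wnt coreceptor LRP5 rose by 1.54.

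**Figure D4:**
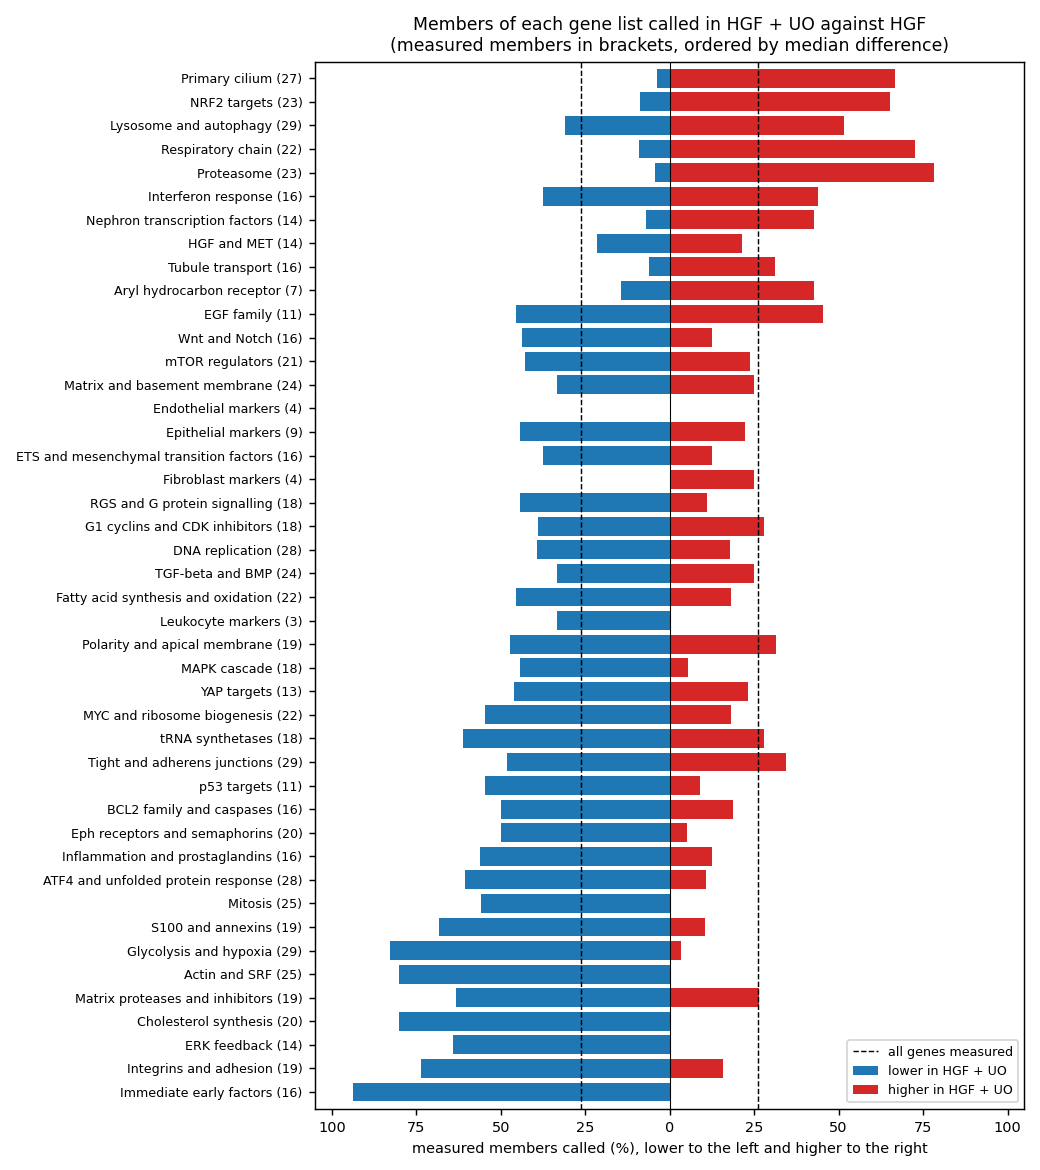
Share of the measured members of each of the 44 gene lists called lower (blue, left) or higher (red, right) in HGF + UO against HGF, with the number of measured members in brackets, ordered by median difference. Dashed lines mark the shares over all genes (26.3% lower and 26.2% higher): the immediate early list reaches 93.8% lower, and the proteasome list 78.3% higher.

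Some genes stood apart with UO from every other group, the cells in medium alone included. These comparisons use the same 3 HGF + UO arrays and the compounds were given at different doses, so the values are set side by side and the compounds are not compared at a matched dose. Of all genes 24.1% were called in HGF + UO against Control and 9.77% in HGF + UO against HGF + PD. The genes named were the 8 each way that kept 1 direction in all 3 comparisons with the widest smallest difference. FOS averaged 11.23 with UO, 14.22 with HGF, 12.03 with HGF + PD and 13.22 in Control, and differed by -2.00 ± 0.07 from Control (adjusted p = 8.45e-10). Its 3 HGF + UO arrays were the lowest of the 15. DUSP5 averaged 7.68 with UO, 11.86 with HGF, 8.68 with HGF + PD and 9.13 in Control. With UO it differed by -1.45 ± 0.19 from Control (adjusted p = 7.46e-05).

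MALL averaged 7.67, 12.02, 9.02 and 9.54 in the same order of groups, a difference of -1.87 ± 0.10 from Control (adjusted p = 2.31e-08). Stanniocalcin (STC1), a secreted glycoprotein of calcium and phosphate balance, averaged 10.71, 12.55, 11.63 and 11.75, a difference of -1.04 ± 0.08 from Control (adjusted p = 5.83e-07). PPP1R3C, which brings a phosphatase to glycogen, averaged 10.17, 11.33, 10.88 and 12.06, so that it was highest in Control. TSPAN15, a tetraspanin partner of the sheddase ADAM10, and SEMA4B were also lower with UO than in each other group. TSPAN15 averaged 8.42 with UO, 10.05 with HGF, 9.69 with HGF + PD and 10.01 in Control, and SEMA4B 8.01, 8.90, 8.95 and 8.96. IDO1, which breaks down tryptophan, read 5.43, 4.50 and 4.04 with UO and its other probe set did not pass (0.04).

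In the upward direction, RCAN1, an inhibitor of the phosphatase calcineurin, averaged 11.87 with UO, 7.96 with HGF, 11.30 with HGF + PD and 10.56 in Control. It was 1.32 ± 0.12 above Control (adjusted p = 2.90e-06). FILIP1L averaged 9.24, 4.37, 7.90 and 4.66 in the same order, so that its HGF and Control means were both near the filter level and the mean with UO was 4.59 ± 0.32 above Control. UCHL1, a deubiquitinase best known from neurons, averaged 10.39, 7.94, 9.37 and 9.36, a difference of 1.03 ± 0.14 from Control (adjusted p = 7.84e-05). STEAP2 and DEPDC7 were 1.65 ± 0.16 and 0.82 ± 0.10 above Control, and PLEKHH2 0.90 ± 0.16. The glutaredoxin GLRX was 1.11 ± 0.13 above Control on its brightest probe set, while its other probe set did not pass against HGF (0.04). SEC16B, which works at endoplasmic reticulum exit sites, was 0.64 ± 0.07 above Control, the smallest such shift of the 8. TIMP1, which is not among these genes, averaged 5.84 with UO, 5.87 with HGF + PD and 6.48 in Control. CYP1B1 averaged 14.78 with UO, 14.44 with HGF + PD and 12.61 in Control, a difference of 2.17 ± 0.11 from Control (adjusted p = 1.62e-08).

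**Figure D5:**
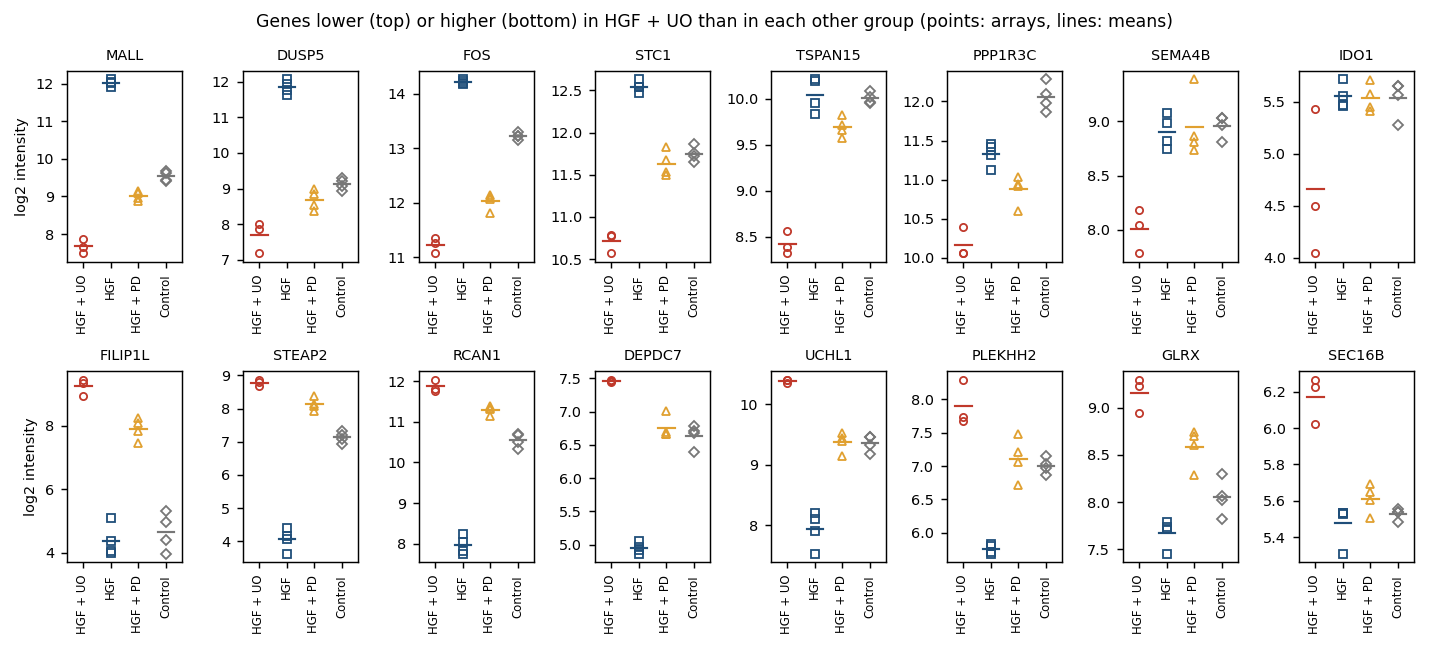
Log2 intensity on each array (points) and group means (lines) of the 8 genes lower (top) and 8 higher (bottom) in HGF + UO than in HGF, HGF + PD and Control. MALL averages 7.67 with UO and 9.54 in Control, and RCAN1 11.87 and 10.56. By the choice of genes, the HGF + UO mean in each panel is at an extreme of the 4 groups. The IDO1 arrays with UO spread from 4.04 to 5.43.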

How the data were processed

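Total RNA of filter-grown MDCK cells was hybridised to 15 Affymetrix canine arrays, of which 7 are compared here. The authors deposited linear intensities. Per the submitters' processing notes they come from GCRMA, which subtracts a background estimated from probe sequence, normalises between arrays and compresses dim probe sets to a floor, so large changes of genes near it depend on that estimate. Its version and probe annotation are not given in the sources used here. Depth does not apply to arrays, and their number limits the precision.

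Log2 was taken without further scaling. Of 43035 probe sets, 111 controls were set aside, and 24904 (58.0% of the rest) that reached 4 on the log2 scale on 3 or more arrays were kept. The platform annotation gave 29254 probe sets 1 symbol and 439 several, and left 13231 unlisted. A gene is read from its brightest probe set by mean over the 15 arrays (10287 genes, from 18490 probe sets). limma 3.58.1 in R 4.3.3 fitted 1 mean per group to the 15 arrays (lmFit, eBayes with a variance trend), with Benjamini-Hochberg adjustment over the 24904 probe sets and a threshold of 0.05. All groups share 1 spread because each has few arrays. All adjusted p-values of genes come from this fit and set a difference of group means against that shared spread, which is the spread between these arrays. Array measures had two-sided exact permutation tests.

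The comparison, the 44 gene lists (1031 genes, 783 measured) and the alternatives were chosen with earlier results of these data known. Genes were named by rule: the 15 widest non-overlapping calls each way with both group means at or above the filter level, the 5 widest each way with the lower mean under it, up to 4 called members each way of a list, all members of 5 signalling lists, and the 8 widest each way against all other groups. Not every gene that the rule allowed is printed. Replicate numbers were not taken as pairs, since the labels do not say what same-numbered cultures had in common. Deviations of same-numbered arrays from their group means correlated by -0.16, 0.17 and 0.17. Those of differently numbered arrays correlated by -0.27 to 0.29, and so few values cannot settle whether cultures were paired. On simulated data with this comparison's spread, 98% of 50 probe sets changed by 1 on the log2 scale were recovered. The share was 58% of those changed by 0.5 and 14% of those changed by 0.25, and 7 unchanged ones were called. Only 50 probe sets of each size were changed among 24904, whereas 52.4% were called in the data. The adjustment is stricter where few probe sets change, so these shares do not give the sensitivity of the real comparison.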

Additional observations from a re-analysis of the deposited data

Results flagged for a closer look

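In 15 of the 213 genes named, 1 of the 4 HGF arrays lay far from the others by Dixon's test, which chance gives in about 1 in 20 groups. The HGF + UO group, with 3 arrays, is too small for it. HGF replicate 2 stood apart for 7 genes. It read 9.80 for DSG3 (others 9.43 to 9.48), 13.68 for SNAI2 (13.90 to 13.93) and 5.80 for CDKN2B (6.56 to 6.68). It also read 9.90 for EHF, 10.86 for KIF11, 5.31 for SEC16B and 14.81 for TXN. HGF replicate 1 read 8.17 for CDC25B (others 8.95 to 9.06), 6.56 for KLHDC9 (5.59 to 5.61), 12.28 for PSMB2 and 3.04 for TEX26. HGF replicate 3 read 3.75 for CLTRN (others 3.22 to 3.28), 2.55 for MME (3.78 to 3.78), 7.97 for MAP2K2 and 13.54 for S100A14.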

How the results depend on the processing

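The count of probe sets called (13060) stayed within 1.5 times under all 15 alternatives. It was 12026 to 12706 with 1 array left out and 12304 to 13406 under the other settings, 12919 with a replicate block. Calls higher (6780) and lower (6280) ran from 6136 to 6589 and from 5724 to 6200 with 1 array left out. Of 3189 values of named genes under those settings 3185 kept direction and call. MAP2K2, which was not called, ran from -0.051 to 0.031 with 1 array left out and was above 0 without HGF + UO replicate 3 or HGF replicate 3. Other probe sets opposed the brightest for MAP2K2 (0.052), MAP2K1 (0.18), ALDH3A1 (0.0034), IDO1 (0.038), CDH16 (-0.42) and NF1 (-0.97 and -0.25), and the cause was not tested. NF1 was also no longer called in a fit of the 7 arrays alone (0.56), and DUSP7 was called after quantile normalization (-0.33). Of 1408 list counts 59 moved by over 1.5 times, most of them between 0 and 2 members. The larger ones were members higher among matrix proteases (3 of the 5 without HGF + UO replicate 1 or 3, or HGF replicate 2 or 4), TGF-beta and BMP genes (3 of the 6 without HGF replicate 3 or in a fit of the 7 arrays alone), ETS and mesenchymal factors (4, against 2) and tRNA synthetases (3, against 5), both read from the most variable probe set. S100 and annexin genes higher numbered 1, against 2, without HGF + UO replicate 1 or 3 or HGF replicate 1 or 2. Nephron factors lower numbered 3, against 1, without HGF replicate 1. The median of all probe sets moved from 0.00 to -0.01 (quantile) and -0.03 (median centring). Cultures given UO without HGF were not analysed here, so its action on HGF-induced and on other expression cannot be told apart. GCRMA limits the size of changes near the floor.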

Other observations

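Symbols that share a prefix were grouped after the values had been seen, giving 94 families of at least 12 measured genes, and some of those far from 0 are described, with no test of the family. The intraflagellar transport genes had the highest median (1.06), with 12 of 14 higher and 0 lower. The CFAP genes, named for cilia and flagella, came next (median 0.95, 9 of 16 higher and 1 lower). CFAP206 averaged 11.35 with UO and 9.11 with HGF alone, a rise of 2.24 ± 0.09, and CFAP300, which is needed to assemble dynein arms, rose by 1.80 ± 0.12. Some of these genes are known for motile cilia and not for the primary cilium of MDCK cells. The aldehyde dehydrogenases followed (median 0.68, 8 of 13 higher and 2 lower). ALDH9A1 rose by 1.72 ± 0.10, ALDH1A1, a retinaldehyde dehydrogenase, by 1.08 ± 0.04, and the mitochondrial folate enzyme ALDH1L2 fell by 1.41 ± 0.17. The symbols that start with B before a number (median 0.45, 10 of 20 higher and 4 lower) are mostly glycosyltransferase genes but also hold unrelated genes. All 12 NDUFA genes of mitochondrial complex I rose, by 0.16 (NDUFA7) to 0.69 (NDUFA12).

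At the low end stood the S100 genes (median -0.89, 10 of 14 lower and 2 higher) and the PTPN tyrosine phosphatases (median -0.51, 6 of 12 lower and 1 higher). PTPN12, a phosphatase of focal adhesion proteins, fell by 1.14 ± 0.05 and PTPN14, which binds YAP, by 1.49 ± 0.10. In the BCL family (median -0.36, 7 of 12 lower and 1 higher), BCL2A1, a survival protein, averaged 9.20 with UO and 12.67 with HGF alone, a fall of 3.47 ± 0.14. Over all genes 26.3% were lower and 26.2% higher.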
